A study of Mus musculus with 8 samples.

Results

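Annexins are calcium-dependent proteins that bind the acidic phospholipids of membranes. Each has a conserved core that docks on a membrane when calcium rises, and a variable head that sets its partners. They serve in membrane repair, vesicle traffic, plasminogen activation at the cell surface and the damping of inflammation, and in the liver several of them are known mainly from cells other than the resting hepatocyte. The data described here are the RNA levels of 8 annexin genes, Anxa1, Anxa2, Anxa3, Anxa4, Anxa5, Anxa6, Anxa7 and Anxa11, taken by symbol from a table of 31910 genes. The set was drawn up because Anxa5 and Anxa2 were lower after one of the vectors, so the difference between the groups is given below as a description. No p-value is printed for any of the 8, and counts of members past a threshold stand only beside the share of all genes.

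RNA sequencing was done on livers of mice given the adeno-associated viral vector AAV2/9-SA (4 libraries, SA 1 to SA 4) or the vector AAV2/9-Ctrl (4 libraries, Ctrl 1 to Ctrl 4). The series title concerns a bacterial protein that forms tetramers, with binding and relocation of acetyl-CoA carboxylase as its stated action, studied in mice with fatty liver and inflammation, and the design text gives 4.8e10 vector genomes per mouse by tail vein after 7 weeks of feeding. Feeding for 24 weeks on high-fat food, for 16 weeks on food rich in fat and cholesterol beside sugar in the drinking water, and on chow is named there, but the labels of the libraries do not say which diet each mouse had. Strain, sex, age and the promoter that drives the vector's insert are not given in the sources used here, and the labels do not spell out SA.

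Libraries held 14114145 to 15922829 counts, except SA 4 with 28184001. All 8 fixed hepatocyte markers were counted, with summed levels of 65873 to 92125 CPM in SA and 75414 to 103777 CPM in Ctrl. Levels are counts per 1000000 (CPM) after scaling by TMM factors, which correct for library composition. The mitochondrial share was 9.23% in Ctrl 4, and elsewhere 3.55% to 4.87%.

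Of the 8 annexins, 7 had counts and entered the fit across all 12358 tested genes, and Anxa1 was listed at 0 counts in every library. Anxa2 and Anxa5 were the 2 members for which every SA library lay below every Ctrl library, a pattern found in 1.46% of all tested genes. Anxa3 was lower by less and overlapped, and Anxa4, Anxa6, Anxa7 and Anxa11 lay close to equal. With edgeR's quasi-likelihood test 0 of the 7 passed an adjusted p of 0.05, against 0.0162% of all tested genes (0.00809% in each direction). At an unadjusted p under 0.05 there were 2 of the 7 lower, against 3.29% of all tested genes lower, 2.91% higher and 6.21% in either direction. DESeq2 called 1 of the 7 lower, against 0.213% of its genes lower and 0.346% in either direction. No member had every SA library above every Ctrl library, against 1.66%. As the set was chosen on this contrast, nothing is read from these shares. The log2 fold change of the 7 had a median of -0.07, against -0.01 over all tested genes, and 6 of the 7 were negative, against 51.3%.

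**Figure D1:**
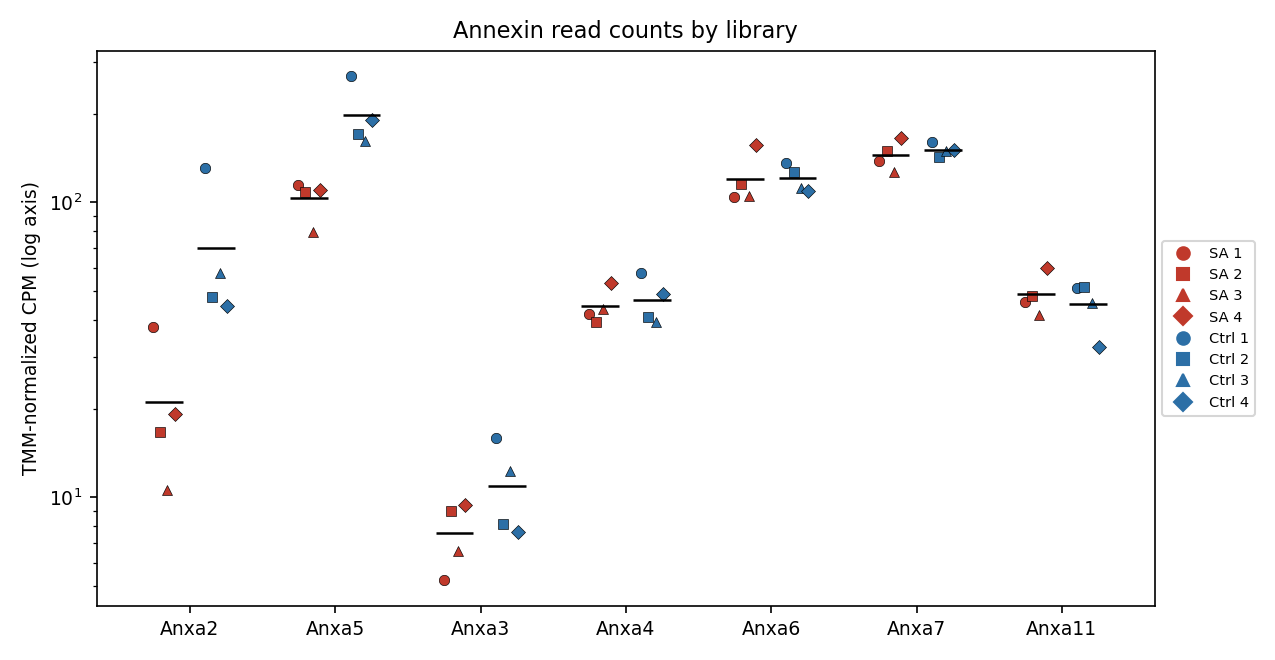
TMM-normalized CPM (log axis) of the 7 counted annexins, with SA libraries in red left of Ctrl libraries in blue, one symbol per library and a bar at the group mean (n = 4 each). Anxa2 and Anxa5 have all 4 red points below all 4 blue ones, and Ctrl 1 is the highest point of both.

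Anxa2 encodes annexin A2, which pairs with the S100a10 protein at the plasma membrane and there binds plasminogen and its activator. Its level was 37.8, 16.7, 10.6 and 19.2 CPM in SA 1 to 4, against 131.1, 47.7, 57.9 and 44.5 CPM in Ctrl 1 to 4. The groups did not overlap, but SA 1 came within 6.68 CPM of the lowest Ctrl library, and Ctrl 1 stood far above the other Ctrl libraries. The mean was 21.1 ± 11.7 CPM in SA and 70.3 ± 40.9 CPM in Ctrl (SD, n = 4 each), a log2 fold change of -1.74 ± 0.40 (SE), or 30.0% of the Ctrl level. Without Ctrl 1 the log2 fold change was -1.25, and without SA 1 it was -2.17.

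Anxa5 encodes annexin A5, which coats membranes that expose phosphatidylserine and is used as a label of dying cells. Its level was 114.4, 108.2, 79.7 and 110.4 CPM in SA 1 to 4, against 268.4, 170.3, 161.4 and 190.96 CPM in Ctrl 1 to 4. A gap of 46.95 CPM separated the highest SA library from the lowest Ctrl library, so the separation was wider than for Anxa2. The mean was 103.1 ± 15.9 CPM in SA and 197.7 ± 48.7 CPM in Ctrl (SD, n = 4 each), a log2 fold change of -0.94 ± 0.18 (SE), or 52.2% of the Ctrl level. The log2 fold change was -0.76 without Ctrl 1 and -1.02 without Ctrl 3, the limits over the omission of each library.

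The annexin counts as a pool were lower in SA. The pool contains Anxa2 and Anxa5, for which the set was chosen, so nothing is read from its separation. Anxa1 enters the pool with its listed counts, which are not read as its level, as described further on. Its part in the pool is therefore not known. The summed level of the 12 annexin symbols in the table was 416.1 to 576.5 CPM in SA and 581.2 to 824.1 CPM in Ctrl. Without Anxa2 and Anxa5 the sum was 325.9 to 446.9 CPM in SA and 351.3 to 424.7 CPM in Ctrl, so the groups overlapped. Anxa2 made up 2.54% to 7.70% of the pool in SA and 7.59% to 15.9% in Ctrl. Anxa5 made up 19.1% to 23.3% in SA and 27.8% to 32.6% in Ctrl.

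The stretches upstream of Anxa2 and Anxa5 are shown because these genes also rose and fell together within the groups, as described further on. They come from RefSeq, build GRCm38.p6, 5′ to 3′ on the gene's own strand, and end before the first base that RefSeq or GENCODE M21 assigns to a transcript. Capitals mark matches on either strand to 4 motifs, the AP-1 site TGANTCA, the GC box GGGCGG, the TATA box TATAAA and the CCAAT box CCAAT, and no match overlaps another.
Anxa2, chr9:69453433-69453619, plus strand: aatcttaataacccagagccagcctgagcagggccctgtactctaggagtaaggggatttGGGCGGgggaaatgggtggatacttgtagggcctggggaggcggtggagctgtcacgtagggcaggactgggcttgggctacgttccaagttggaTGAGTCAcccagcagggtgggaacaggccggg
Anxa5, chr3:36475895-36476137, minus strand: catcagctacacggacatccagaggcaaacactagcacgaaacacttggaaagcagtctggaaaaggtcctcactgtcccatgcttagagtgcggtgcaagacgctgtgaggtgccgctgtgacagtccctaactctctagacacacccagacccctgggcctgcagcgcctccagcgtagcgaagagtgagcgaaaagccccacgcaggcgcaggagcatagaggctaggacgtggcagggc

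In the 250 bases before the RefSeq start, Anxa2 held 1 AP-1 match, 3 GC boxes and 1 TATA box, and Anxa5 held none of the 4 motifs. The printed Anxa2 stretch of 187 bases holds the AP-1 match and 1 GC box. The other Anxa2 matches reach past its end, into bases that GENCODE M21 assigns to a transcript. Of 32851 mouse windows of that length, 6.75% held the AP-1 letters, 32.7% the GC box, 12.4% the TATA box and 33.8% the CCAAT box. Windows were at hand for 6 of the 8 members, and Anxa2 was the only one of these with an AP-1 match. A match is a string of letters and not a measured binding site. The G and C content of the window was 62.4% for Anxa2 and 58.8% for Anxa5, against a median of 52.4%.

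Anxa3 encodes annexin A3, the least abundant of the counted members. Its level was 5.23, 9.01, 6.57 and 9.44 CPM in SA 1 to 4, against 15.9, 8.13, 12.3 and 7.61 CPM in Ctrl 1 to 4. The groups overlapped, with Ctrl 1 and Ctrl 3 above every SA library and Ctrl 2 and Ctrl 4 among them. The log2 fold change was -0.53 ± 0.27 (SE), and -0.30 without Ctrl 1.

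Anxa4 encodes annexin A4, an annexin of epithelial cells. Its counts gave 39.4 to 53.4 CPM in SA and 39.3 to 57.7 CPM in Ctrl, a log2 fold change of -0.07 ± 0.16 (SE). Anxa6, whose protein carries a doubled annexin core and is linked to endosomes and cholesterol traffic, gave 104.0 to 156.1 CPM in SA and 109.6 to 135.9 CPM in Ctrl, a log2 fold change of -0.01 ± 0.16 (SE). The groups overlapped for both.

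Anxa7 and Anxa11 encode annexins with long heads. Annexin A7 binds sorcin and annexin A11 binds Pdcd6, a protein of vesicle export. Anxa7 gave 127.2 to 165.96 CPM in SA and 142.6 to 160.7 CPM in Ctrl, a log2 fold change of -0.05 ± 0.13 (SE). Anxa11 gave 41.6 to 59.8 CPM in SA and 32.3 to 51.7 CPM in Ctrl, a log2 fold change of 0.11 ± 0.18 (SE). SA 4, the most deeply sequenced library, was the highest of the 8 for Anxa6, Anxa7 and Anxa11, and Ctrl 4 was the lowest for Anxa11. The sign changed with the library left out for Anxa4 (-0.17 to 0.05), Anxa6 (-0.17 to 0.05), Anxa7 (-0.13 to 0.01) and Anxa11 (-0.02 to 0.19).

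Anxa1 encodes annexin A1, which restrains neutrophils through formyl peptide receptors. A count of 0 allows up to 3 counts, or 0.108 to 0.215 CPM, in a library. The authors' FPKM table, which holds 9265 rows for the same 8 samples, nevertheless listed Anxa1 at 2.86, 2.497, 3.04 and 3.01 FPKM in SA 1 to 4, against 15.1, 3.87, 7.60 and 7.93 FPKM in Ctrl 1 to 4. In FPKM every SA library was below every Ctrl library, with Ctrl 2 nearest to SA and Ctrl 1 highest. Anxa3, at 2.46 to 11.1 FPKM, had 78 to 261 counts per library, so the 0 for Anxa1 and its FPKM do not describe the same amount of RNA.

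The 2 tables differed in this way for 495 of the 8638 FPKM symbols also found in the count table, or 5.73%, which were at 0 counts in all 8 libraries. In the GENCODE M21 annotation Anxa1 lies wholly inside the span of 1500015L24Rik, a long non-coding RNA gene on the opposite strand, although the exons of the genes share no base. Of the 482 such symbols found in GENCODE, 73.2% lay wholly inside the span of another gene, against 0.909% of the 8027 symbols that had counts. Exonic bases were shared with another gene by 56.6% and 35.3% of the same symbols. The part of such overlaps in the 0 counts of Anxa1 was not tested. The other 7 members lay inside no other gene, and at most 3.07% of their exonic bases, in Anxa3, were shared with another gene. A gene on the opposite strand overlaps Anxa2 (Gm16144), Anxa4 (Gm44036) and Anxa11 (Anxa11os), and without strand the reads of such a pair cannot be told apart where they overlap. As the 2 tables conflict, the 0 counts of Anxa1 are not read as its level, and its FPKM are the only values here.

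FPKM are scaled to transcript length and library size, so they allow the genes to be ordered. Anxa5 was highest, with a median of 102.9 FPKM over the 8 libraries, and Anxa7 (55.0 FPKM), Anxa6 (46.0 FPKM), Anxa11 (29.3 FPKM), Anxa2 (22.1 FPKM), Anxa4 (13.7 FPKM), Anxa3 (4.70 FPKM) and Anxa1 (3.45 FPKM) followed. Anxa5 was above Anxa7 in 8 of 8 libraries and Anxa6 above Anxa11 in 8 of 8. Anxa7 was above Anxa6 in 5 libraries, Anxa11 above Anxa2 in 4 and Anxa3 above Anxa1 in 5, so these neighbours were not separated. The place of Anxa2 moved with the group, with a median of 12.7 FPKM in SA and 39.6 FPKM in Ctrl. By median Anxa1 was below Anxa3 in SA (2.93 and 4.46 FPKM) and above it in Ctrl (7.76 and 6.59 FPKM). Single libraries were split, since SA 1, Ctrl 2 and Ctrl 3 had the reverse order of their group's medians. Anxa2 was above Anxa4 in 6 of 8 libraries, with SA 2 and SA 4 the other way. The median of Anxa4 was 16.5 FPKM in SA, above that of Anxa2, and 10.7 FPKM in Ctrl, below it. The SA libraries were thus split in the order of these genes.

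**Figure D2:**
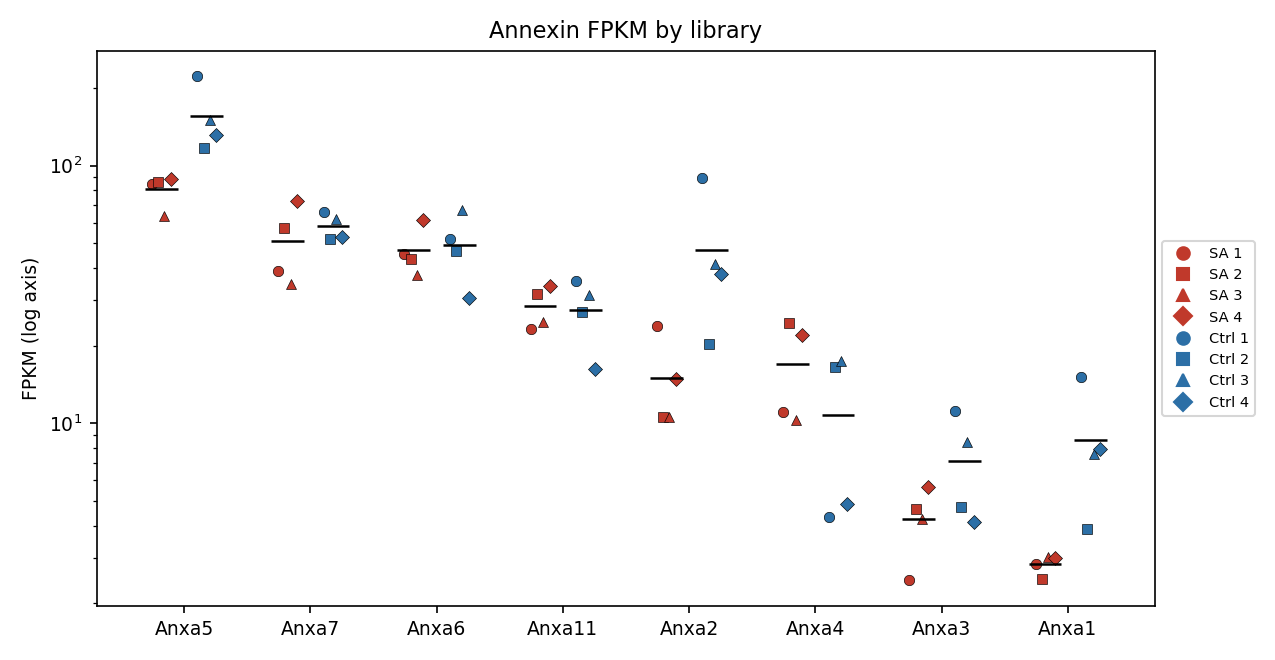
Deposited FPKM (log axis) of the 8 annexins in order of their median, with SA libraries in red left of Ctrl libraries in blue and a bar at the group mean (n = 4 each). Anxa5 and Anxa1 have all red points below all blue ones, while Anxa2 overlaps through SA 1 at 23.9 FPKM and Ctrl 2 at 20.3 FPKM.

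In FPKM 2 of the 8 members, Anxa1 and Anxa5, had every SA library below every Ctrl library, against 1.0% of all rows of that table. Anxa5 was at 85.0, 86.3, 63.8 and 89.0 FPKM in SA 1 to 4, against 222.5, 116.7, 150.3 and 131.6 FPKM in Ctrl 1 to 4. Anxa2 was at 23.9, 10.6, 10.6 and 14.8 FPKM in SA 1 to 4, against 89.1, 20.3, 41.4 and 37.8 FPKM in Ctrl 1 to 4. The gap that separated the groups for Anxa2 in counts was thus lost in FPKM, where SA 1 exceeded Ctrl 2.

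On the log2(FPKM + 1) scale, which understates the change of low genes, the fold changes fitted with limma were -1.48 ± 0.44 (SE) for Anxa2, -1.20 ± 0.33 (SE) for Anxa1 and -0.90 ± 0.22 (SE) for Anxa5. Anxa3 had -0.58 ± 0.33, Anxa6 -0.03 ± 0.25, Anxa7 -0.24 ± 0.24 and Anxa11 0.08 ± 0.25 (SE). These come from the same samples as the counts and are not further replicates. Anxa4 was the exception, at 0.75 ± 0.50 (SE), opposite in sign to its counts.

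Anxa4 was at 11.01, 24.6, 10.3 and 22.0 FPKM in SA 1 to 4, against 4.31, 16.5, 17.4 and 4.86 FPKM in Ctrl 1 to 4, while its CPM were nearly level. The ratio of FPKM to CPM varied 8.36-fold between libraries for Anxa4, more than for 84.1% of the 7940 genes in both tables, whose median was 1.62-fold. It varied 1.36-fold for Anxa5, 1.38-fold for Anxa11, 1.49-fold for Anxa3, 1.61-fold for Anxa7, 2.15-fold for Anxa6 and 2.35-fold for Anxa2. No direction is given for Anxa4, since the tables disagree.

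**Figure D3:**
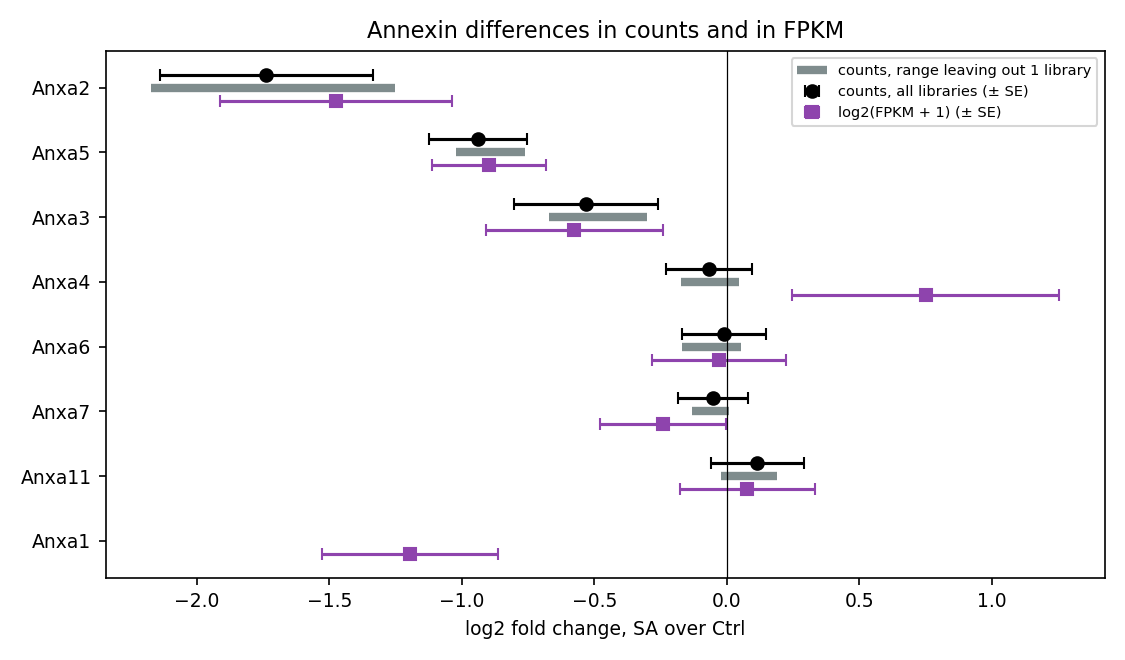
log2 fold change of SA over Ctrl for each annexin, as fitted on counts (black points, ± SE), as the range when each library in turn is left out (grey bars) and as fitted on log2(FPKM + 1) (purple squares, ± SE). Anxa2, Anxa5 and Anxa3 stay below 0 in all 3, Anxa4 lies on opposite sides of 0 in counts and FPKM, and Anxa1 has an FPKM value only.

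The other 4 annexins of the table had few counts or none. Anxa9 had 19 to 40 counts in SA and 11 to 29 in Ctrl, and edgeR gave it a fold change of -0.19 ± 0.35 (log2, SE; adjusted p = 0.996). Anxa13 had 1 to 25 counts in SA and 11 to 36 in Ctrl, and edgeR gave it -0.41 ± 0.59 (log2, SE; adjusted p = 0.996), and its single count was in SA 3. Anxa10 had 1 count in each of SA 1 to 3 and 0 elsewhere. Anxa8 was listed at 0 counts in every library and is not among the rows of the FPKM table. It lies inside the span of another gene, A630023A22Rik, whose part in the 0 was not tested.

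S100a10, also known as p11, is the partner that joins annexin A2 into a tetramer. It was at 223.1, 96.6, 66.9 and 110.3 CPM in SA 1 to 4, against 250.6, 158.2, 126.2 and 87.6 CPM in Ctrl 1 to 4. The groups overlapped widely, since SA 1 was second only to Ctrl 1 and Ctrl 4 was below SA 2 and SA 4. The log2 fold change of -0.33 ± 0.36 (SE) did not pass (edgeR, adjusted p = 0.996), and it was -0.01 without Ctrl 1 and -0.77 without SA 1.

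Anxa2 and S100a10 stood in a nearly fixed proportion in SA. The ratio of Anxa2 CPM to S100a10 CPM was 0.170, 0.173, 0.158 and 0.174 in SA 1 to 4, against 0.523, 0.302, 0.459 and 0.508 in Ctrl 1 to 4. SA 1, the highest SA library for both genes, had the same ratio as the other SA libraries. As the ratio contains Anxa2, it is a description of the same difference and carries no test.

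**Figure D4:**
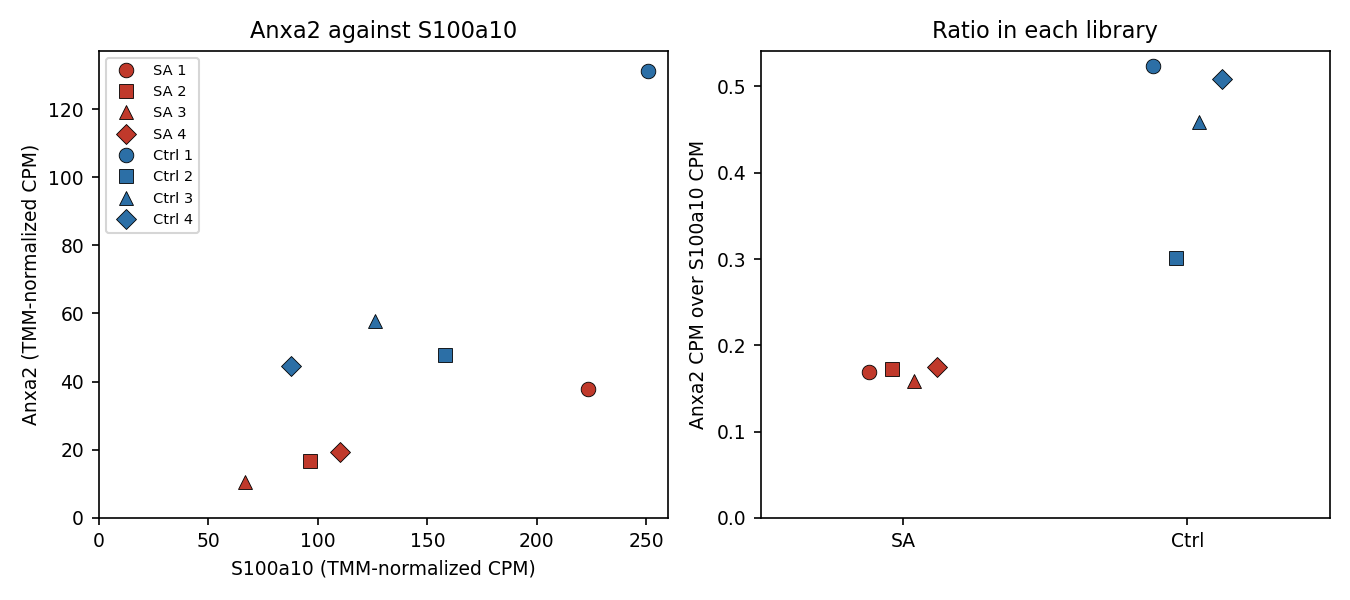
Left, Anxa2 against S100a10 in TMM-normalized CPM, and right, the ratio of Anxa2 CPM to S100a10 CPM, with SA libraries in red and Ctrl libraries in blue, one symbol per library. The SA ratios lie between 0.158 and 0.174 and the Ctrl ratios between 0.302 and 0.523.

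Within the groups, Anxa2 and Anxa5 rose and fell together. After the mean of its own group was taken from each library's log2 CPM, which removes the difference that chose the set, their deviations correlated at Pearson's r = 0.83 over the 8 libraries, and at 0.67 to 0.89 when each library in turn was left out. Anxa2 deviated by 0.99 in SA 1 and 1.05 in Ctrl 1 and by -0.83 in SA 3, and Anxa5 by 0.16, 0.47 and -0.36 in the same libraries. Anxa6 correlated more with Anxa7 (r = 0.80) and Anxa11 (r = 0.79) than with Anxa5 (r = 0.44) or Anxa2 (r = 0.21). The members did not fall into separate blocks, since Anxa5 also correlated with Anxa7 (r = 0.67) and Anxa4 (r = 0.65). These values share libraries and depth and are descriptions.

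Of 9215 named genes with a mean of at least 5 CPM, annexins left out, the genes most like Anxa2 in these deviations were Lgals3bp (r = 0.96), Bccip (0.96), S100a10 (0.93), Bcam (0.93) and Ciao2b (0.93). Their lowest r on leaving out a library was 0.89 to 0.94. They are the extremes of many genes over 8 libraries, so high values of r are partly the result of that choice. Their log2 fold changes were 0.04 ± 0.14 for Lgals3bp, -0.16 ± 0.13 for Bccip, -0.33 ± 0.36 for S100a10, -0.41 ± 0.31 for Bcam and 0.03 ± 0.19 for Ciao2b (SE). The genes most like Anxa5 were Lsm1 (r = 0.98), Arfrp1 (0.97), Tbrg4 (0.95), Tmed4 (0.95) and Apip (0.94), with log2 fold changes between -0.17 and 0.08.

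Genes set beside the annexins were described from 4 lists of 49 genes in all, of which 45 were tested. None of the 45 passed with edgeR (adjusted p of 0.05, against 0.0162% of all genes). At an unadjusted p under 0.05 there were 6 lower in SA, against 3.29% of all genes, and 2 higher, against 2.91%, together 17.8% against 6.21%. As the lists were drawn up with earlier results of these data known, nothing is read from these shares. DESeq2 called 1 gene of these lists, S100a11, as lower, against 0.213% of its genes lower and 0.346% in either direction.

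Among the 10 tested genes of the list of partners and receptors the median log2 fold change was -0.19. S100a11, which binds annexin A1, was at 9.12, 4.69, 4.84 and 7.20 CPM in SA 1 to 4, against 31.0, 8.34, 13.6 and 19.8 CPM in Ctrl 1 to 4. Only SA 1 reached the lowest Ctrl library, Ctrl 2. Its log2 fold change of -1.49 ± 0.36 (SE) did not pass with edgeR (adjusted p = 0.342) and passed with DESeq2 (adjusted p = 0.0106), and it was -1.10 without Ctrl 1. Ccn2, a matricellular growth factor that the list holds but that is not read here as an annexin partner, had -0.75 ± 0.28 (SE; edgeR, adjusted p = 0.662). S100a6, another S100 gene, had -1.28 ± 0.59 (SE; edgeR, adjusted p = 0.800), with -0.59 without Ctrl 1. Sri, the sorcin gene, had -0.03 ± 0.16 and Pdcd6 -0.06 ± 0.15 (SE; edgeR, adjusted p = 0.996 for both). Fpr1, a formyl peptide receptor, had 0.11 ± 0.25 (SE; edgeR, adjusted p = 0.996), and S100a4 and Fpr2 were listed at 0 counts in every library.

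In the plasminogen list, 9 tested genes had a median of -0.04. The 2 activators had the lowest fold changes of them. Plau, the urokinase gene, was at 2.95 to 3.88 CPM in SA and 3.79 to 9.42 CPM in Ctrl. In log2 it fell short of the threshold at -0.91 ± 0.27 (SE; edgeR, adjusted p = 0.509), and it was at -0.66 without Ctrl 1. Plat, the tissue activator gene, was at 0.402 to 0.813 CPM in SA and 0.483 to 5.60 CPM in Ctrl, with -1.85 ± 0.63 (SE; edgeR, adjusted p = 0.572). Plat had -0.85 without Ctrl 1, the library with 5.60 CPM.

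Phosphatidylserine is the lipid that annexin A5 binds, and 15 tested genes that expose or sense it had a median of 0.19. Plscr1, a scramblase gene, was at 41.7, 26.9, 29.0 and 34.2 CPM in SA 1 to 4, against 65.4, 48.1, 57.2 and 43.2 CPM in Ctrl 1 to 4. Every SA library lay below every Ctrl library, as in 1.46% of all tested genes, and in log2 the difference was -0.70 ± 0.18 (SE; edgeR, adjusted p = 0.367). In all other genes of the 45 tested in the 4 lists the groups overlapped, so nothing is read from this separation. Timd4, a phosphatidylserine receptor and Kupffer cell marker, had 0.71 ± 0.29 (SE; edgeR, adjusted p = 0.731). The 11 tested membrane repair genes had a median of -0.05, with Dysf at 0.38 ± 0.20 and Chmp4c at -0.25 ± 0.35 (SE; edgeR, adjusted p = 0.912 and 0.996).

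Whole liver was sequenced, so fewer cells of a type and less RNA per cell cannot be told apart. Marker sums of other cell types are therefore given beside Anxa2 and Anxa5. The recruited macrophage markers, 9 of 9 counted, summed to 44.0 to 51.8 CPM in SA and 40.1 to 216.5 CPM in Ctrl, with a median log2 fold change of -1.24. Stellate cell markers, 7 of 9 counted with Lrat and Timp1 at 0, summed to 261.3 to 324.96 CPM in SA and 321.1 to 798.6 CPM in Ctrl, with a median of -0.75. Bile duct markers, 9 of 9 counted, summed to 39.1 to 67.3 CPM in SA and 35.8 to 136.3 CPM in Ctrl, with a median of -0.87 over the 6 tested. Spp1, at a mean of 38.1 CPM in SA and 70.8 CPM in Ctrl, was the largest part of the bile duct sum. Of the 6 tested bile duct genes 5 were negative, and Krt7 had 0.26 ± 0.48 (log2, SE). Ctrl 1, the highest library for Anxa2 and Anxa5, was the highest for all 3 sums.

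Ctrl 2 was the exception among the controls. Its sums were 40.1 CPM for recruited macrophages and 35.8 CPM for bile ducts, below all 4 SA libraries, and 321.1 CPM for stellate cells, within the SA range. Anxa5 in Ctrl 2 was at 170.3 CPM, above the SA maximum of 114.4 CPM, and Anxa2 was at 47.7 CPM, above the SA maximum of 37.8 CPM. In FPKM Anxa5 in Ctrl 2 was at 116.7, above the SA maximum of 89.0. Anxa2 in Ctrl 2 was at 20.3 FPKM, below SA 1 at 23.9 FPKM. The part of these cell types in the annexin differences was not tested.

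**Figure D5:**
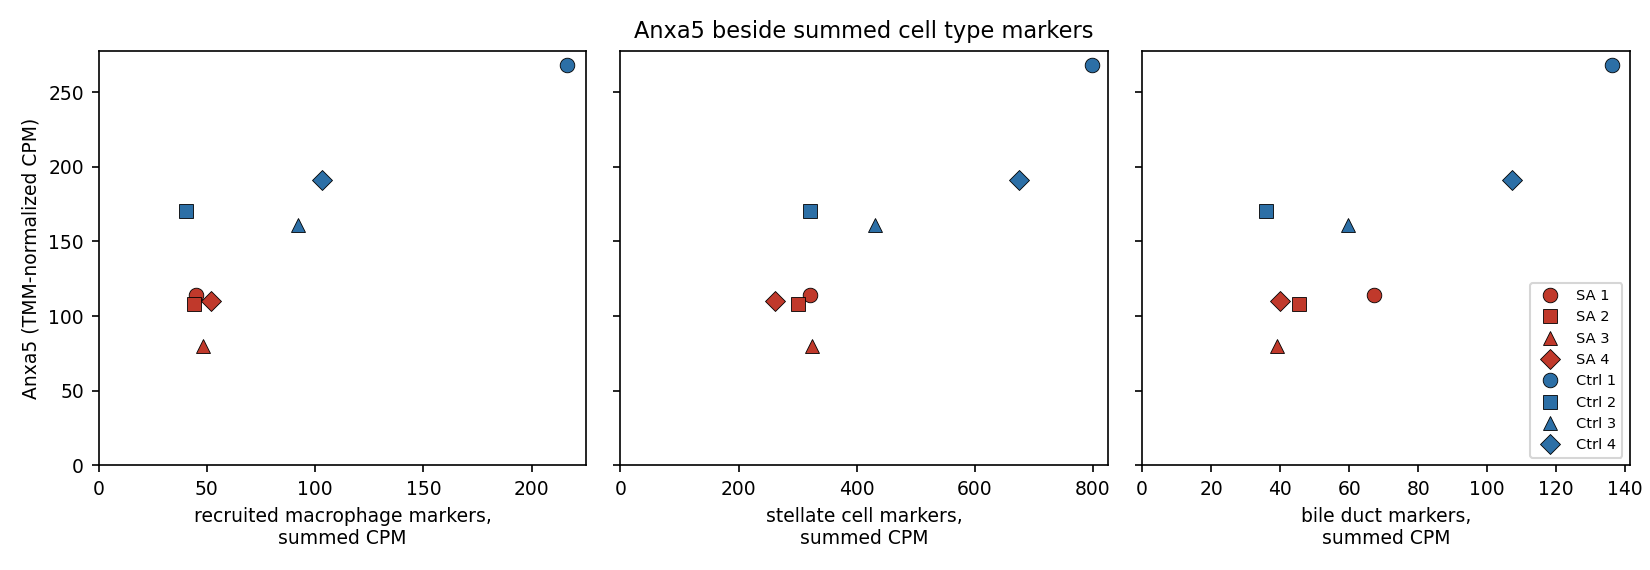
Anxa5 in TMM-normalized CPM against the summed CPM of recruited macrophage, stellate cell and bile duct markers, with SA libraries in red and Ctrl libraries in blue, one symbol per library. Ctrl 2 (blue square) has marker sums of 40.1, 321.1 and 35.8 CPM, at or below the SA libraries or among them, and an Anxa5 level of 170.3 CPM, above them. Spp1 is the largest part of the bile duct sum.

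Other marker sums overlapped between the groups, except for T and NK cells. Kupffer cell markers (8 of 8 counted) summed to 757.0 to 1109 CPM in SA and 624.6 to 978.1 CPM in Ctrl. Their median log2 fold change was 0.37, with 7 of 8 positive, and the exception was C6, at a mean of 392.6 CPM in SA and 411.8 CPM in Ctrl the largest part of the sum. Endothelial markers (8 of 8) summed to 264.6 to 374.4 CPM in SA and 336.4 to 374.9 CPM in Ctrl, with a median of -0.10 over the 7 tested. Neutrophil markers (7 of 8, Ly6g at 0) summed to 7.57 to 11.5 CPM in SA and 9.17 to 18.9 CPM in Ctrl, with 4 of 4 tested negative and a median of -0.64. T and NK cell markers (8 of 8) summed to 5.88 to 8.92 CPM in SA and 0.933 to 3.68 CPM in Ctrl. Only 3 of them had enough counts to be tested, with a median of 2.41 and all 3 positive. B and plasma cell markers (5 of 8, with Ms4a1, Mzb1 and Igkc at 0) summed to 15.6 to 43.7 CPM in SA and 19.3 to 32.4 CPM in Ctrl, with a median of 0.17 over the 5 tested.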

How the data were processed

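RNA of frozen liver was sequenced after a NEBNext Ultra library preparation, which the labels do not describe as strand-specific. The deposited count table lists unnormalized whole-number counts of reads for each gene, and the deposited FPKM table holds FPKM as computed by the authors. FastQC 0.19.7, HISAT2 and StringTie 2.2.1 and the builds GRCm39 and mm10 are named per the submitters' processing notes. The sources used here do not give the counting program or its build. GENCODE M21 (GRCm38) served only to describe overlaps between genes.

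Groups follow the sample titles. Counts were fitted with edgeR 4.0.16 in R 4.3.3 (quasi-likelihood F test, TMM factors, filterByExpr, 12358 genes, Benjamini-Hochberg over all of them, threshold 0.05). Each SE is the absolute log2 fold change over the root of F. CPM divide counts by the TMM-scaled library size of tested genes. Nothing in the labels says that the samples are separate animals, so p-values reflect only how these samples vary. No 2 libraries of a group agreed within sampling noise (chi-square per degree of freedom of at least 33.2). The biological coefficient of variation was 22.6%. The count floor of 3 covers counting error only. Same-numbered SA and Ctrl libraries did not deviate together, so the main fit has no block.

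The members and lists were chosen with earlier results of these data known. Named genes were the annexins, S100a10, the 2 genes of smallest p in each companion list, and the 5 genes most like Anxa2 and Anxa5 within groups. S100a6, Sri, Pdcd6, Fpr1, S100a4 and Fpr2 were named after their values were seen. Alternatives were DESeq2 1.42.0, limma-voom (limma 3.58.1), upper quartile or RLE factors, unfiltered counts, a minimum of 1 CPM in 4 libraries, the replicate number as a block and the omission of each library. FPKM were fitted by limma after adding 1 (with and without a low-value filter) or 0.1 and taking log2.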

Additional observations from a re-analysis of the deposited data

Results flagged for a closer look

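Of 38 sets of 4 values (annexins and S100a10, by group, in CPM and in FPKM), 2 held a library set apart from its group by a gap of more than 0.829 of the group's range, and chance gives this in about 1 in 20 such groups. Anxa2 was at 131.1 CPM in Ctrl 1, while Ctrl 2 to Ctrl 4 lay at 44.5 to 57.9 CPM. Anxa5 was at 63.8 FPKM in SA 3, while SA 1, SA 2 and SA 4 lay at 85.0 to 89.0 FPKM.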

How the results depend on the processing

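Over all genes, edgeR called 1 gene higher and 1 lower in SA. Without a low-count filter there were 3 higher and 5 lower, with DESeq2 23 and 37, with limma-voom 2 lower, and with each of the 3 FPKM fits 0 higher and 3 lower. Leaving out each library gave 0 to 13 higher and 0 to 6 lower. Of the 45 companion genes 0 passed with edgeR, against 0.0162% of all tested genes. DESeq2 called 1 of them lower, S100a11, against 0.213% of its genes lower. With the replicate number as a block 5 of 12358 tested genes were called lower, 1 of them Anxa2. As the set was chosen for Anxa2 on this contrast, nothing is read from that call. Same-numbered libraries deviated together at r = -0.02, -0.02, 0.22 and -0.22, and not every library correlated best with its own number, so the samples share only a number. Over the 18 alternative fits Anxa2, Anxa3 and Anxa5 stayed negative, at -2.17 to -1.25, -0.67 to -0.30 and -1.02 to -0.76. Anxa4 moved to 0.75 and 0.83 and Anxa7 to -0.24 and -0.25 in the FPKM fits. The causes were not tested. The correlation of Anxa2 with Anxa5 within groups was 0.83 by Spearman's rho and 0.83 at a prior count of 0.5. Depth limits the low members most: values of Anxa9, Anxa10 and Anxa13 rest on at most 40 counts a library.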

Other observations

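Genes at 0 counts were not limited to Anxa1. Among the genes of the fixed lists, Lrat and Igkc were also at 0 counts in all 8 libraries yet listed in the FPKM table. Of the 10 listed genes at 0 counts, 6 (Anxa1, Anxa8, Lrat, Timp1, Ms4a1 and Igkc) lie wholly inside the span of another gene in GENCODE M21. S100a4, Fpr2, Ly6g and Mzb1 were at 0 counts without lying inside another gene. The cause of the 0 counts was not tested.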
